A study of Mus musculus with 4 samples.

Results

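T cells leave tissues and lymphoid organs by following sphingosine-1-phosphate (S1P), and 7 genes of this exit route were followed in T cells of the mouse meninges and choroid plexus. They were the S1P receptor genes S1pr1, S1pr4 and S1pr5, the Krüppel-like factor genes Klf2, Klf3 and Klf6, and Cd69. The rule that picked them from the 31053 genes in the count tables used gene names only. The members, and the gene lists used further below, were however chosen with earlier results of these data known. Their counts beside the shares of all genes are therefore a description and not a test of the set. The study compared young and aged female C57BL/6 mice, 10 weeks and 18 months old, with no other treatment or allele. T cells were sorted from each of the 2 tissues, 5 mice were pooled for a library, and there was 1 library per condition: meninges and choroid plexus of young mice, and meninges and choroid plexus of aged mice. Each gene was then followed across CD4 and CD8 T cells and across cells with and without transcript of Ccr7, the lymph node homing receptor of naïve and central memory T cells. With 1 library per condition no test between conditions was possible, and each interval below is an exact 95% interval that covers counting error only.

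S1P is abundant in blood and lymph and kept low within tissues, and a T cell that carries the receptor S1PR1 on its surface can move up this gradient and leave. KLF2 is a transcription factor of naïve and recirculating T cells that switches on S1pr1. CD69 protein, which appears after activation, binds S1PR1 and takes it off the surface, so CD69 acts on the receptor protein and not on its transcript. KLF3 is mainly a repressor that binds the same CACCC-type DNA element as other members of the family, and its gene is known to be switched on by other Krüppel-like factors. KLF6 is a zinc finger factor that is induced early after many stimuli. S1PR5 serves exit of natural killer cells and is found on circulating effector CD8 T cells, and S1PR4 is a receptor of lymphoid and blood cells. Tissue-resident memory T cells typically carry CD69, integrins and CXCR6 and have low KLF2 and S1PR1.

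Because the Krüppel-like factors bind CACCC elements, the start regions of the 3 KLF genes are shown. Each runs from 250 bases before to 50 bases after the start given by RefSeq on GRCm38.p6, and capitals mark CACCC or, for a match on the other strand, GGGTG.
Klf2, chr8:72318812-72319111, plus strand: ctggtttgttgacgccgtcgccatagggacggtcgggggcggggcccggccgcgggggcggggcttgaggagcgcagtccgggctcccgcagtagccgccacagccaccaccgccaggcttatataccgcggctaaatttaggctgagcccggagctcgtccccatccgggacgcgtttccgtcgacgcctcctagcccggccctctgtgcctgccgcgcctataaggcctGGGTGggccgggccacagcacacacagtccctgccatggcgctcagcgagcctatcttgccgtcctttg
Klf3, chr5:64803271-64803570, plus strand: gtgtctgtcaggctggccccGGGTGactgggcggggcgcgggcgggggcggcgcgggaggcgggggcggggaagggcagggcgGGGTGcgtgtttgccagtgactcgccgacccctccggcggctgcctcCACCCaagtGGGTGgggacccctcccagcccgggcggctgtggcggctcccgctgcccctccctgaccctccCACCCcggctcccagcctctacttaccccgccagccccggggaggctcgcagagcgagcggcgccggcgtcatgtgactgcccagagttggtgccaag
Klf6, chr13:5861239-5861538, plus strand: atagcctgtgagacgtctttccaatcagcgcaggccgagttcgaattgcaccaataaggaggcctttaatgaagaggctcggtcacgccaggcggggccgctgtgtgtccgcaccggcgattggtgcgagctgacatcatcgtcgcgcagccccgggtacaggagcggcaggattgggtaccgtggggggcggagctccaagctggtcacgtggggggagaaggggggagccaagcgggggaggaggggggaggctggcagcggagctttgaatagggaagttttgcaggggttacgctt
The Klf3 window held 5 matches, 2 as CACCC and 3 as GGGTG. The Klf2 window held 1 match and the Klf6 window held none. Among 32851 mouse start regions of this length, 57.5% held the motif at least once and 1.02% held it at least 5 times. The windows of S1pr5 and S1pr4, which lie on the minus strand, held 2 and 1 matches. S1pr1 and Cd69 had no entry in this sequence table. A match is a run of letters and shows no binding, and a window with no match says nothing about what the factors do elsewhere.

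On GRCm38 the receptor genes lie at chr3:115710433-115715072 (S1pr1), chr10:81497747-81500132 (S1pr4) and chr9:21242912-21248443 (S1pr5), all on the minus strand. Klf2 (chr8:72319033-72321656), Klf3 (chr5:64803388-64832901) and Klf6 (chr13:5861482-5870394) are on the plus strand, and Cd69 (chr6:129267325-129275436) is on the minus strand. S1pr5 overlaps the gene Gm48303 on the opposite strand, and Klf3 overlaps Gm20033 on the opposite and C230096K16Rik on the same strand, so a part of the reads of these members could have been lost or shared in counting.

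After filtering, the libraries from meninges and choroid plexus of young mice, then meninges and choroid plexus of aged mice, held 1007, 605, 1408 and 1094 T cells, defined by a unique molecular identifier (UMI) of Cd3d, Cd3e or Cd3g. The median T cell had 3198, 2978, 2312.5 and 2838.5 UMIs in this order, which is the order of the 4 libraries wherever 4 values are listed in the text. CD4 T cells (Cd4 detected, Cd8a and Cd8b1 not) numbered 254, 160, 362 and 230, and CD8 T cells (the reverse) 254, 160, 281 and 473. The CD8 class also held cells with a UMI of a gamma-delta T or natural killer (NK) cell marker, most of all in the aged choroid plexus. Without such cells the CD8 class numbered 233, 142, 206 and 281 and the CD4 class 242, 158, 355 and 225. The CD8 to CD4 ratios below include them. The cells with neither transcript numbered 481, 269, 735 and 358, had fewer UMIs per cell than the CD8 T cells and are a class of missing transcript, not a cell type. Any pair of libraries shared at most 3 cell barcodes. The summed naïve T-cell markers were 2226 and 2076 CPM, that is UMIs per 1e6 UMIs of the class, in the young libraries and 404 and 387 CPM in the aged ones. Endothelial cells also express S1pr1 and Klf2, and the 6 endothelial markers summed to 20.5 to 55.4 CPM, with values that were lower in the aged libraries. Only 2 of the 6 had a UMI in each young library and 3 in each aged one, and Cldn5 was at 0 in all 4 libraries. Leaving out every cell with a marker of a non-T cell type left S1pr1, Klf2 and Klf3 lower in aged T cells of both tissues, with log2 ratios between -1.77 and -1.01. That filter was broad and kept 415, 275, 794 and 719 T cells. The B-cell markers alone were found in 47.6%, 45.0%, 25.9% and 28.1% of the T cells.

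S1pr1 was higher in the young libraries than in the aged ones in every T-cell class. Over all T cells it measured 277 CPM (260 to 295) in young meninges, 231 CPM (211 to 253) in young choroid plexus, 131 CPM (120 to 143) in aged meninges and 92.8 CPM (83.2 to 103) in aged choroid plexus. The share of cells with an S1pr1 UMI, after each cell was thinned to 1000 UMIs, was 23.3%, 20.4%, 11.8% and 8.85%, against 50.8%, 48.9%, 22.4% and 21.3% without thinning. The sort held T cells only, so no cell type without S1pr1 was at hand to give the share due to free RNA. When the 4 libraries and 3 classes were put in order, the 6 young values stood above the 6 aged values. The highest was 317 CPM in cells with neither transcript of the young meninges and the lowest 66.3 CPM in CD8 T cells of the aged choroid plexus. Neighbours in that order could not be separated beyond counting error except at 1 step, where CD4 T cells of the aged choroid plexus (125 CPM) stood 1.5-fold above CD8 T cells of the aged meninges (82.9 CPM).

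CD8 T cells had less S1pr1 than CD4 T cells in each of the 4 libraries. CD4 T cells measured 301, 240, 144 and 125 CPM, and CD8 T cells 196, 154, 82.9 and 66.3 CPM. The CD8 level was 0.650 (0.539 to 0.782), 0.645 (0.488 to 0.850), 0.575 (0.429 to 0.764) and 0.532 (0.400 to 0.708) of the CD4 level, so the interval lay below 1 in every library. Among the cells with no Ccr7 transcript CD4 T cells measured 153, 179, 119 and 119 CPM and CD8 T cells 122, 83.3, 68.6 and 55.1 CPM. There the interval of the ratio included 1 in the young meninges, at 0.798 (0.529 to 1.20), and lay below 1 in the other libraries, at 0.466 (0.269 to 0.803), 0.578 (0.409 to 0.808) and 0.461 (0.333 to 0.639).

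Over all T cells S1pr4 followed the same order of ages with a smaller span. It measured 123 CPM in young meninges, 91.6 CPM in young choroid plexus, 76.5 CPM in aged meninges and 60.5 CPM in aged choroid plexus. Among its 12 class values the ages were mixed, with CD8 T cells of the young choroid plexus (78.8 CPM) below CD4 T cells of the aged meninges (86.9 CPM). No pair of neighbours among these values could be separated. CD8 T cells had less S1pr4 than CD4 T cells in the aged libraries, with 0.623 (0.430 to 0.893) of the CD4 level in meninges and 0.536 (0.376 to 0.766) in choroid plexus. In the young libraries the interval of this ratio included 1.

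S1pr5 was rare, with 28, 5, 24 and 13 UMIs in all T cells, or 7.96, 2.46, 6.33 and 3.56 CPM. In the young meninges all 28 UMIs lay in 12 cells. CD8 T cells held 13 of these 28, 1 of 5, 12 of 24 and 8 of 13 UMIs.

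Klf2, the factor that switches on S1pr1, was lower in both aged libraries and lowest in the aged choroid plexus. It measured 1084 CPM in young meninges, 777 CPM in young choroid plexus, 424 CPM in aged meninges and 188 CPM in aged choroid plexus. After thinning, 54.5%, 48.7%, 22.8% and 14.2% of T cells had a Klf2 UMI. The order of the 12 class values ran from 1164 CPM in cells with neither transcript of the young meninges to 145 CPM in CD8 T cells of the aged choroid plexus, again with all young values above all aged ones. As for S1pr1, CD8 T cells had less Klf2 than CD4 T cells, with 0.891 (0.815 to 0.974), 0.673 (0.581 to 0.779), 0.699 (0.603 to 0.808) and 0.590 (0.485 to 0.719) of the CD4 level.

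Klf3 separated the ages and had no order of the classes that was shared by the libraries. Over all T cells it measured 277, 212, 109 and 67.9 CPM. CD4 T cells measured 241, 244, 114 and 42.9 CPM and CD8 T cells 283, 184, 113 and 63.4 CPM. The CD8 to CD4 ratio had an interval that included 1 in 3 of the 4 libraries, and was 0.757 (0.582 to 0.984) in young choroid plexus. In the aged choroid plexus the cells with neither transcript, at 91.2 CPM, stood 1.44-fold above the CD8 T cells, a separable step. All young values were again above all aged ones, with a separable step between the lowest young value (184 CPM, CD8 T cells of the choroid plexus) and the highest aged value (114 CPM, CD4 T cells of the meninges).

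The class values of Klf6 and Cd69 were ordered by tissue and not by age, although some of their age folds given below had intervals that excluded 1. Klf6 measured 285 CPM in meninges of young mice and 343 CPM in those of aged mice, against 147 and 149 CPM in young and aged choroid plexus. Cd69 measured 81.0 and 101 CPM in young and aged meninges and 54.6 and 40.8 CPM in the choroid plexus of the same ages. For Klf6 the lowest of the 6 meningeal classes (224 CPM) stood above the highest of the 6 choroid plexus classes (184 CPM), and for Cd69 the corresponding values were 72.4 and 69.4 CPM. For neither gene was this step between the tissues separable beyond counting error. In young mice the Cd69 fold of choroid plexus over meninges was 0.445 (0.280 to 0.687) in CD8 T cells. In CD4 T cells, at 0.704 (0.437 to 1.10), and cells with neither transcript, at 0.959 (0.682 to 1.34), its interval included 1. CD8 T cells had less Klf6 than CD4 T cells in every library, with 0.776, 0.686, 0.703 and 0.715 of the CD4 level and intervals below 1. The Cd69 ratio between CD8 and CD4 T cells had an interval that included 1 in every library.

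**Figure D1:**
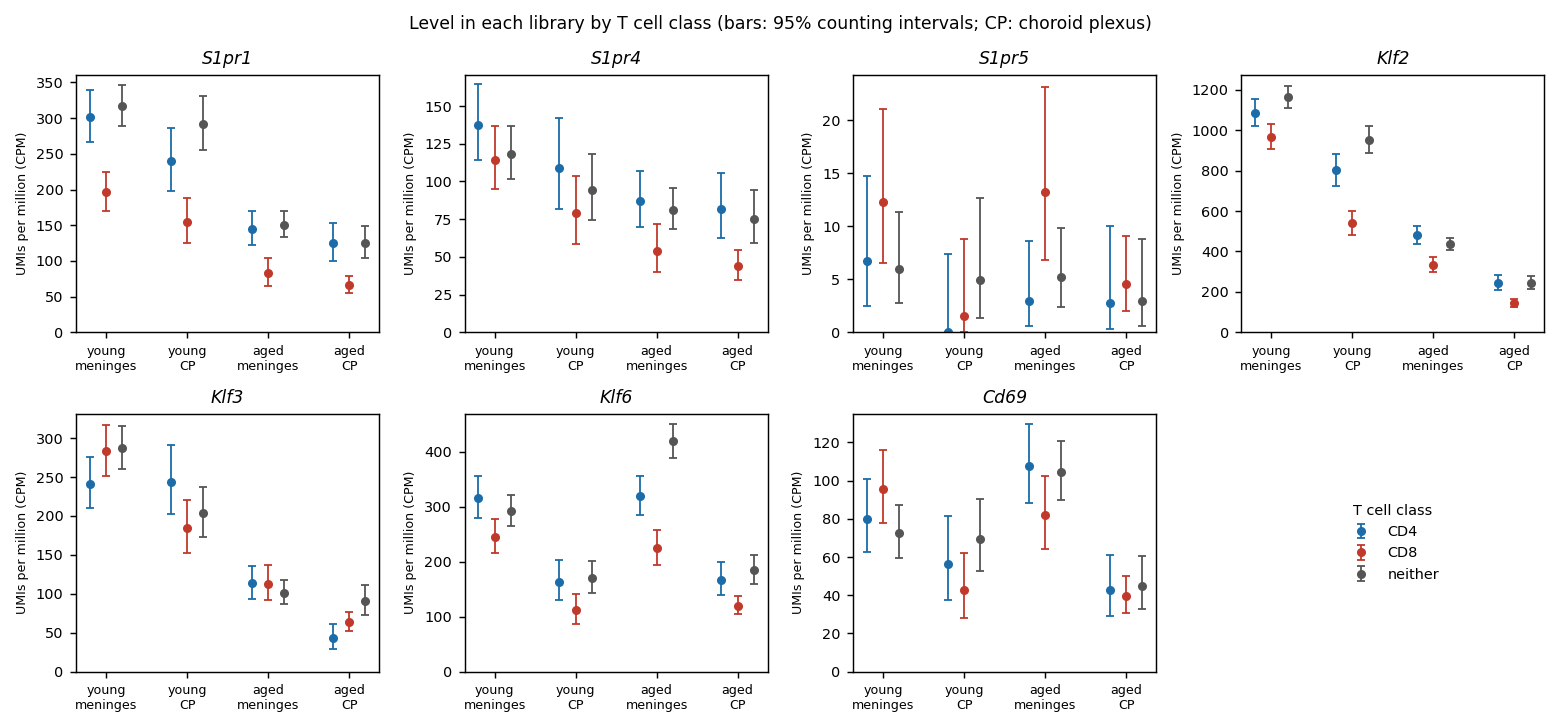
Level of each member in CPM (vertical axes, 1 panel per gene) in CD4 T cells, CD8 T cells and cells with neither transcript of the 4 libraries, with exact 95% Poisson intervals for counting error as bars. S1pr1, Klf2 and Klf3 stand higher in both young libraries, and Klf6 and Cd69 stand higher in both meningeal libraries.

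To set these age differences against the other genes, a rule of size was used: the higher of both libraries needed 20 or more summed UMIs, and the log2 ratio, taken after 10 CPM was added to each side, had to reach 1 upward or downward. In the meninges 3 of the 7 members passed over all T cells, against 3.20% of all genes measured. They were S1pr1, Klf2 and Klf3, and all of them fell. The aged level was 0.473 (0.424 to 0.528) of the young one for S1pr1, 0.391 (0.369 to 0.415) for Klf2 and 0.394 (0.350 to 0.442) for Klf3, which gave log2 ratios of -1.02, -1.33 and -1.27. S1pr4 missed the rule with a fold of 0.623 (0.535 to 0.724). Klf6 and Cd69 missed it in the other direction, with folds of 1.20 (1.11 to 1.31) and 1.25 (1.07 to 1.46). The S1pr5 fold of 0.795 (0.441 to 1.42) was not separable from 1.

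In the choroid plexus the same members fell over all T cells, 3 of the 6 with enough UMIs, against 3.09% of all genes. S1pr1 was at 0.401 (0.348 to 0.462), Klf2 at 0.241 (0.220 to 0.264) and Klf3 at 0.321 (0.273 to 0.376) of the young level, and the log2 ratios were -1.23, -2.0 and -1.51. S1pr4 was at 0.661 (0.541 to 0.807) of the young level and missed the rule. By class its interval lay below 1 in CD8 T cells, at 0.556 (0.384 to 0.811). The S1pr4 interval included 1 in CD4 T cells (0.511 to 1.11) and in cells with neither transcript (0.572 to 1.11). Over all T cells the Klf6 fold was 1.01 (0.875 to 1.17). The Cd69 fold was 0.746 (0.580 to 0.963), below 1, where that of the meninges was above 1. The median log2 ratio of the members was -0.62 in meninges and -0.88 in choroid plexus, beside medians over all genes of 0.05 and 0.10. Scaling by the median of ratios removes this upward shift of the genes and so can only deepen the falls, and all of them stayed past the rule.

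The same members fell within the classes. S1pr1, Klf2 and Klf3 passed in the meninges in CD4 T cells (3 of 6 members tested, against 6.10% of genes), in CD8 T cells (3 of 6, against 5.03%) and in cells with neither transcript (3 of 6, against 4.86%). In the choroid plexus they passed in CD8 T cells (3 of 6, against 3.33%) and in cells with neither transcript (3 of 6, against 6.44%), and 2 of 6 passed in CD4 T cells (against 9.19%). The member that missed there was S1pr1, with a log2 ratio of -0.89. Klf3 gave its largest difference in the same class, from 244 CPM in young to 42.9 CPM in aged CD4 T cells, a log2 ratio of -2.26. The call of S1pr1 in meningeal CD4 T cells rested on a log2 ratio of -1.01 and was lost under 6 of 15 alternatives, with a value of -0.49 when each cell was thinned to 1000 UMIs, and that of Klf3 in the same class was lost under 4 of 15. The log2 ratio of S1pr1 over all meningeal T cells, -1.02, was also close to the limit and was -0.85 when 50 CPM was added in place of 10.

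The age groups differed in the makeup of their T cells. Ccr7 transcript was found in 59.7% and 54.7% of T cells in the young libraries and in 9.52% and 9.87% in the aged ones, so each member was measured separately in cells with and without it. Both S1pr1 and Klf2 were higher in Ccr7-positive cells in each library. S1pr1 measured 348, 285, 305 and 154 CPM in Ccr7-positive cells and 167, 163, 107 and 84.0 CPM in Ccr7-negative cells. Klf2 measured 1365, 1023, 959 and 422 CPM in Ccr7-positive cells and 654, 466, 351 and 154 CPM in Ccr7-negative cells. Klf3 was split in the same direction, with 344, 274, 288 and 158 CPM against 173, 133, 84.5 and 54.8 CPM. S1pr4 was not, with 120, 100.3, 70.2 and 62.8 CPM against 127, 80.5, 77.3 and 60.2 CPM. Under the rule of size 3 members passed between the states in the young meninges (S1pr1 and Klf2 lower and S1pr5 higher in Ccr7-negative cells, against 3.35% of genes). In the young choroid plexus 1 passed (Klf2 lower, against 3.0%). In the aged meninges 3 passed (S1pr1, Klf2 and Klf3 lower, against 4.09%) and in the aged choroid plexus 2 (Klf2 and Klf3 lower, against 2.01%). The calls of S1pr1 and Klf2 in the young meninges were each lost under 6 of 16 alternatives, such as a Ccr7 call after thinning (log2 ratios of -0.70 and -0.74). That of S1pr5 was lost under 4 of 16, with a log2 ratio of 0.488 when 50 CPM was added.

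**Figure D2:**
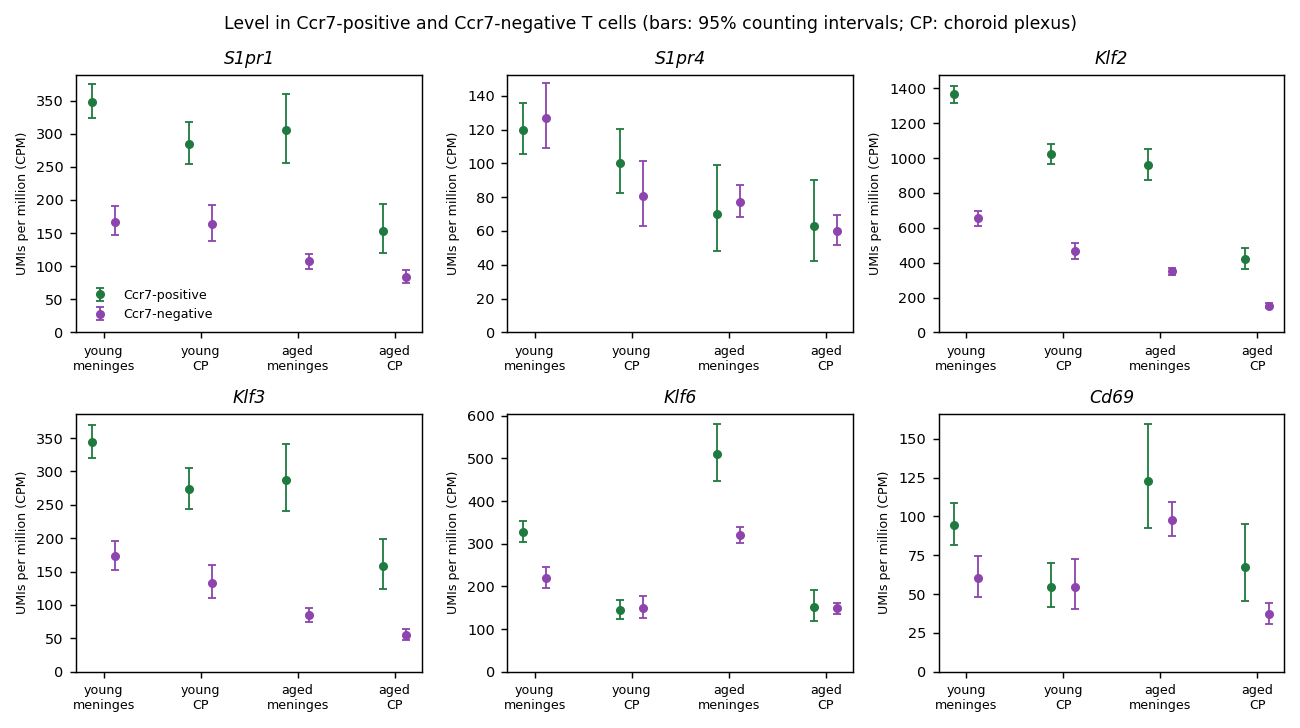
Level of the members other than S1pr5 in CPM (vertical axes, 1 panel per gene) in Ccr7-positive and Ccr7-negative T cells of the 4 libraries, with exact 95% Poisson intervals as bars. S1pr1, Klf2 and Klf3 stand higher in Ccr7-positive cells of every library, while the S1pr4 values of both states lie close together.

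Within the Ccr7-negative cells the age differences of S1pr1, Klf2 and Klf3 were smaller than over all T cells. In the meninges none of the 7 members passed the rule over all Ccr7-negative cells (against 1.83% of genes). S1pr1 was at 0.641 (0.542 to 0.759), Klf2 at 0.537 (0.492 to 0.586) and Klf3 at 0.488 (0.409 to 0.582) of the young level, intervals that all lay below 1. The other members lay as far from 1 as over all T cells or farther, with S1pr4 at 0.608 (0.50 to 0.740), S1pr5 at 0.343 (0.189 to 0.617), Klf6 at 1.45 (1.28 to 1.65) and Cd69 at 1.62 (1.27 to 2.09) of the young level. The 28 S1pr5 UMIs of the young meninges lay in 12 cells, and the S1pr5 interval does not cover that spread between cells. In the choroid plexus Klf2 and Klf3 fell (2 of 6 members, against 2.12% of genes), to 0.330 (0.289 to 0.376) and 0.412 (0.325 to 0.525) of the young level, while S1pr1, at 0.515 (0.419 to 0.634), missed the rule. By class, the S1pr1 interval included 1 in CD4 T cells of both tissues and in CD8 T cells of the choroid plexus. It lay below 1 in the other classes. In the meninges Klf2 in CD8 T cells (log2 ratio -1.19) and Klf3 in cells with neither transcript (-1.03) passed the rule. These class calls were not counted against all genes. Within the Ccr7-positive cells no member passed in the meninges (0 of 6, against 3.25% of genes), where S1pr1 was at 0.876 (0.725 to 1.05) and Klf3 at 0.835 (0.688 to 1.01) of the young level and Klf2 at 0.703 (0.634 to 0.778). In the choroid plexus Klf2 alone passed the rule among Ccr7-positive cells (1 of 6, against 4.22% of genes), at 0.413 (0.353 to 0.481) of the young level. S1pr1 was at 0.539 (0.411 to 0.699) and Klf3 at 0.578 (0.441 to 0.747). The Ccr7-positive cells were themselves not alike across ages. A UMI of Lef1, another gene of naïve T cells, was found in 77.5% of them in young and 34.3% in aged meninges. In young and aged choroid plexus the shares were 80.1% and 40.7%. The part of this difference in the folds of the Ccr7-positive cells was not tested.

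A T cell without a Ccr7 UMI may still carry other naïve transcripts, and Lef1, a transcription factor of naïve and early T cells, was found in part of them. When cells with a UMI of either gene were set aside, 230, 134, 1103 and 844 cells were left. In these S1pr1 measured 103, 85.4, 98.4 and 71.6 CPM, and the aged level was 0.958 (0.739 to 1.25) of the young one in meninges and 0.839 (0.591 to 1.22) in choroid plexus, intervals that both included 1. Klf2 remained lower, with 601 and 348 CPM in young and aged meninges and 298 and 137 CPM in young and aged choroid plexus. Its folds were 0.579 (0.517 to 0.650) and 0.459 (0.376 to 0.564). Klf3 remained lower in the meninges (0.547, 0.431 to 0.699) and had an interval that included 1 in the choroid plexus (0.836, 0.545 to 1.33), where the call of Klf3 among Ccr7-negative cells was thus lost (log2 ratio -0.22).

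The share of the age difference that went with the share of Ccr7-positive cells was computed by giving the aged library the young share of UMIs from such cells. For S1pr1 this removed 65.7% of the CPM difference in meninges and 21.8% in choroid plexus. For Klf3 it removed 58.7% and 31.1%, and for Klf2 44.7% and 19.7%. For S1pr4 it removed 3.67% in the choroid plexus and none in the meninges (-7.37%). With cells defined by a UMI of Ccr7 or Lef1 the shares removed were 41.9% and 26.8% for S1pr1, 34.5% and 24.7% for Klf3 and 21.4% and 15.1% for Klf2. In this computation a larger part of the S1pr1 and Klf2 differences therefore went with these shares in the meninges than in the choroid plexus, and for every one of the 3 genes a part remained. The size of that contrast depended on the direction of the computation. With the aged Ccr7 share given to the young library, S1pr1 went from 277 to 189 CPM in meninges and from 231 to 179 CPM in choroid plexus. Klf2 went from 1084 to 739 CPM and from 777 to 536 CPM, and the contrast between the tissues was smaller for both genes.

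**Figure D3:**
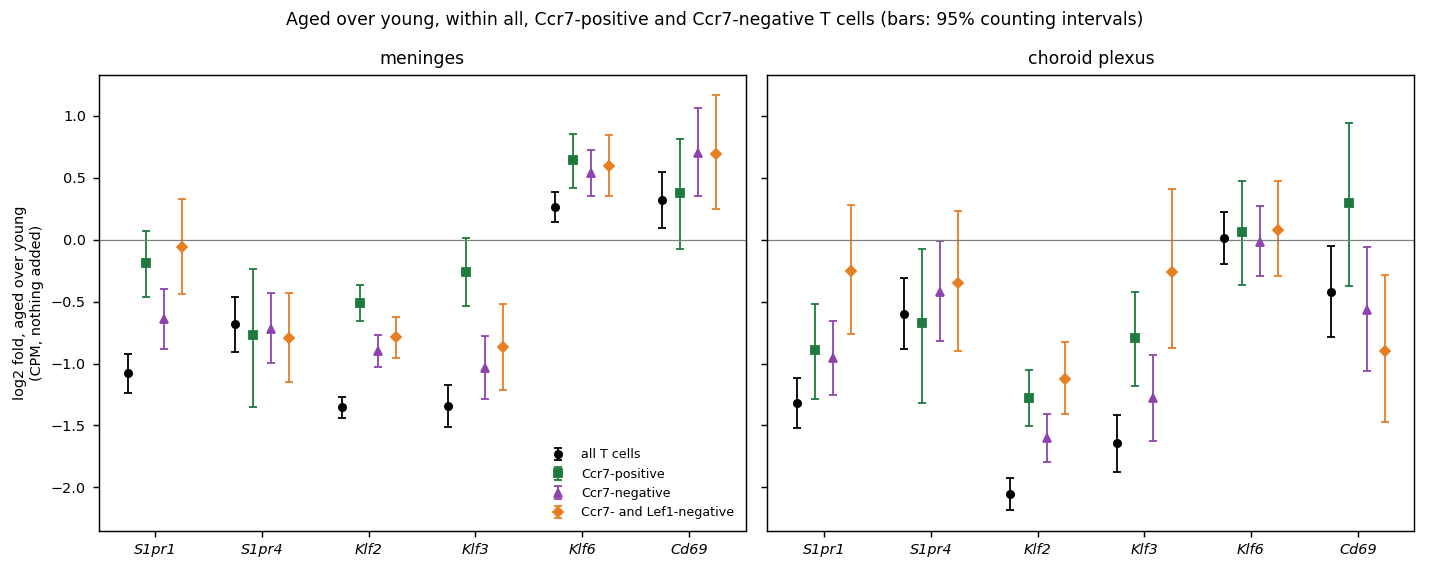
Aged over young fold of the members other than S1pr5 as a log2 value (vertical axes), with exact 95% intervals as bars, in all T cells, Ccr7-positive cells, Ccr7-negative cells and cells negative for both Ccr7 and Lef1 of the meninges (left) and the choroid plexus (right). S1pr1, Klf2 and Klf3 lie below 0 over all T cells of both tissues, and the Ccr7-positive meningeal intervals of S1pr1 and Klf3 cross 0.

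The Ccr7-negative cells were next split by a UMI of Itgae, Itga1 or Cxcr6, genes of the integrins and chemokine receptor that mark many tissue-resident memory T cells. Marked cells numbered 161, 109, 521 and 538 and unmarked cells 245, 165, 753 and 448. S1pr1 measured 52.9, 51.9, 57.0 and 43.2 CPM in marked cells and 265.5, 272, 152 and 148 CPM in unmarked cells. The marked cells therefore had 0.199 (0.134 to 0.288), 0.190 (0.116 to 0.299), 0.376 (0.293 to 0.480) and 0.293 (0.223 to 0.381) of the level of unmarked cells. In the marked cells the aged and young levels of S1pr1 were not separable, with folds of 1.08 (0.718 to 1.65) in meninges and 0.833 (0.520 to 1.38) in choroid plexus. In the unmarked cells the aged level was lower, at 0.571 (0.473 to 0.689) and 0.542 (0.429 to 0.686) of the young one. This split did not set aside cells with a Lef1 UMI, which were a larger part of the young Ccr7-negative cells. Of 406, 274, 1274 and 986 Ccr7-negative cells, 230, 134, 1103 and 844 had no Lef1 UMI. Their part in the folds of the unmarked cells was not tested.

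Klf2 was also low in the marked cells, at 243, 113, 166 and 68.9 CPM, against 1006, 813, 514 and 286 CPM in unmarked cells. Unlike S1pr1 it was lower with age in both kinds of cell: in marked cells the fold was 0.683 (0.558 to 0.838) in meninges and 0.611 (0.438 to 0.863) in choroid plexus, and in unmarked cells 0.511 (0.463 to 0.563) and 0.351 (0.303 to 0.408). Klf3 measured 118, 63.2, 58.3 and 38.6 CPM in marked and 220.1, 202, 108 and 80.2 CPM in unmarked cells. Klf6 was lower in marked cells of the meninges, at 0.589 (0.460 to 0.750) of the unmarked level in young and 0.619 (0.545 to 0.703) in aged mice, and its interval included 1 in both choroid plexus libraries. S1pr4 was separable between these cells in the aged choroid plexus only, where marked cells had 0.520 (0.387 to 0.698) of the unmarked level.

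Cd69 transcript was not higher in the marked cells. It measured 43.6, 47.4, 95.4 and 38.1 CPM in them and 74.7, 62.0, 100.3 and 35.3 CPM in unmarked cells. The ratio of marked to unmarked cells was 0.583 (0.357 to 0.934) in young meninges, and its interval included 1 in the other libraries. CD69 protein was not measured in these data. In marked meningeal cells Cd69 was higher in the aged library, at 2.19 (1.45 to 3.41) times the young level, while the fold in the choroid plexus was 0.803 (0.489 to 1.37).

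**Figure D4:**
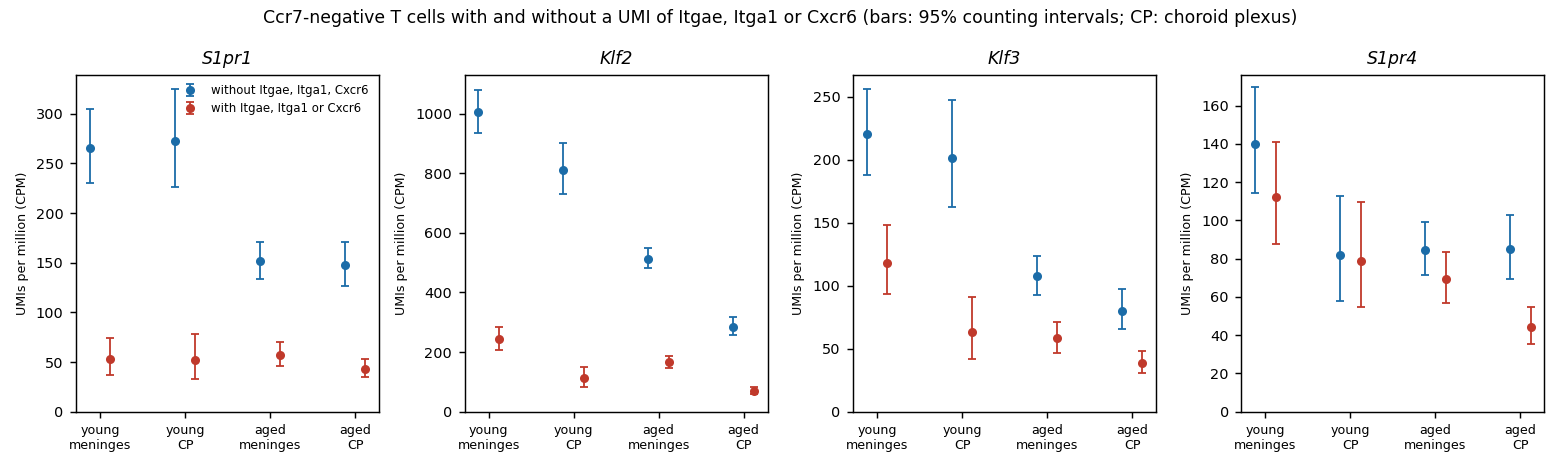
Level of S1pr1, Klf2, Klf3 and S1pr4 in CPM (vertical axes, 1 panel per gene) in Ccr7-negative T cells with and without a UMI of Itgae, Itga1 or Cxcr6, by library, with exact 95% Poisson intervals as bars. S1pr1 and Klf2 are lower in marked cells of every library, while the S1pr4 intervals are apart in the aged choroid plexus only.

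S1pr5 transcript was concentrated in few cells. A gate of circulating effector genes, a UMI of Cx3cr1 or Klrg1, held 36, 13, 91 and 59 T cells, nearly all of them Ccr7-negative (32, 12, 87 and 57). These cells held 28 of 28, 5 of 5, 19 of 24 and 4 of 13 S1pr5 UMIs, or 100%, 100%, 79.2% and 30.8%. Within the gate 33.3%, 30.8%, 14.3% and 5.08% of the cells had an S1pr5 UMI. Outside it none of 971 and 592 cells of the young libraries had one, and 0.380% and 0.773% of the cells of the aged libraries did. The median UMI counts inside the gate (3261, 2585, 2703 and 3289) stood beside 3196, 2985, 2283 and 2830 outside it. In the young libraries 3 UMIs outside the gate, a number chosen here as a floor, would have been 0.896 and 1.52 CPM. The share of S1pr5 UMIs inside the gate was thus lower in the aged choroid plexus, on a total of 13 UMIs. In the aged libraries, where the gate held at least 50 cells, its cells had 523 and 289 CPM of Klf2 and 78.4 and 90.6 CPM of S1pr1.

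Klf2, Klf6 and Cd69 were lower in the choroid plexus than in the meninges of aged mice. With choroid plexus set against meninges, none of the 7 members passed the rule in young mice (against 1.03% of genes), though Klf6 came near with a fold of 0.516 (0.452 to 0.587) and a log2 ratio of -0.91. The young folds of Klf2, 0.717 (0.676 to 0.761), and Cd69, 0.675 (0.537 to 0.843), also had intervals below 1. All 7 members had log2 ratios below 0 at both ages, with medians of -0.47 in young and -0.61 in aged mice. Over all genes the medians were -0.04 and 0.004. In aged mice 3 passed, all lower in the choroid plexus (against 0.919% of genes). They were Klf2 at 0.442 (0.404 to 0.484) of the meningeal level, Klf6 at 0.433 (0.391 to 0.479) and Cd69 at 0.404 (0.332 to 0.489), with log2 ratios of -1.14, -1.16 and -1.13. These calls were lost under 5, 2 and 3 of 14 alternatives. Among Ccr7-negative aged cells the folds were 0.438 (0.393 to 0.487), 0.463 (0.414 to 0.516) and 0.377 (0.303 to 0.467).

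Genes of the early response to stimulation and to tissue dissociation were likewise higher in the meninges. The 20 genes of that list, among them Fos, Jun and Hspa1a, summed to 5112 and 7572 CPM in young and aged meninges and to 1369 and 1793 CPM in young and aged choroid plexus. The 25% of T cells with the largest share of such UMIs, cut over all libraries, lay almost wholly in the meninges. They were 33.0% of the young and 46.2% of the aged meningeal T cells, against 0.165% and 4.20% in the choroid plexus. With these cells left out, Klf6 measured 223, 145, 214 and 148 CPM, Cd69 63.8, 54.7, 65.1 and 35.7 CPM and Klf2 947, 777, 285 and 182 CPM. The log2 ratios of aged choroid plexus over aged meninges were then -0.50 for Klf6, -0.72 for Cd69 and -0.62 for Klf2, and none of the 3 passed. The age folds of the meninges were then 0.956 (0.842 to 1.09) for Klf6 and 1.02 (0.804 to 1.29) for Cd69. The Klf6 and Cd69 age folds given above for Ccr7-negative meningeal cells, and that of Cd69 for marked ones, include the cells left out here. The 4 haemoglobin transcripts, summing to 218 and 343 CPM in meninges and 1.48 and 1.64 CPM in choroid plexus, also went with the tissue, and their part in these values was not tested. The tissues were sorted as separate libraries, so tissue and handling cannot be told apart.

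**Figure D5:**
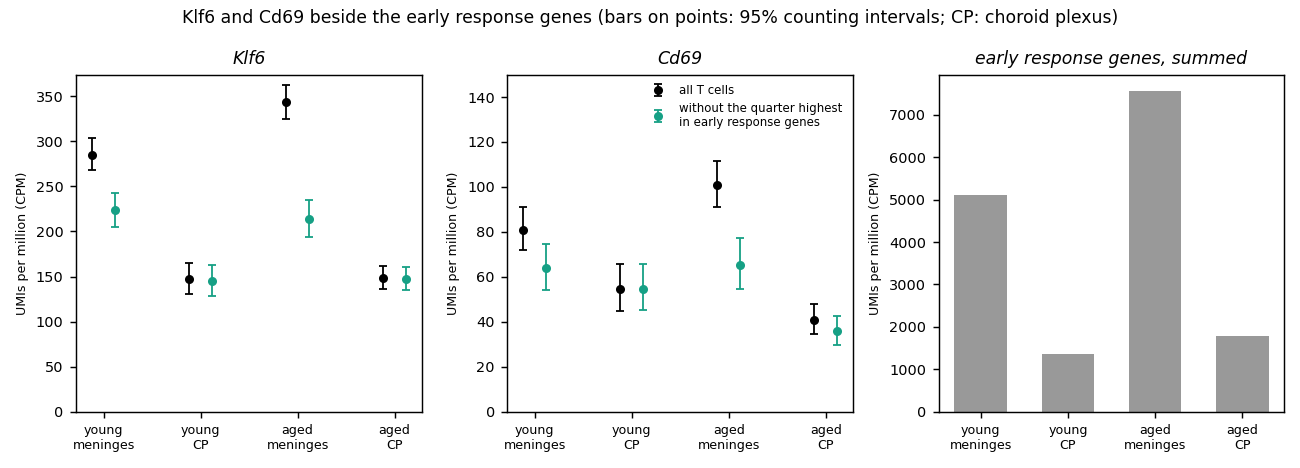
Klf6 and Cd69 in CPM (vertical axes) by library in all T cells and with the T cells richest in early response UMIs left out, with exact 95% Poisson intervals on the points, and, as bars in the right panel, the summed CPM of the early response genes. The gap between the meningeal and the choroid plexus libraries is smaller when these cells are left out.

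Cells with a Klf2 UMI more often had an S1pr1 UMI. After thinning to 1000 UMIs, S1pr1 was found in 27.9% (24.2 to 31.9) of Klf2-positive and 17.8% (14.4 to 21.6) of Klf2-negative T cells of the young meninges, and in 25.3% (20.5 to 30.7) and 15.6% (11.8 to 20.2) of those of the young choroid plexus. In the aged meninges the shares were 28.2% (23.3 to 33.6) and 6.90% (5.45 to 8.60), and in the aged choroid plexus 21.7% (15.4 to 29.1) and 6.73% (5.20 to 8.55). The ratio of the shares was 1.57, 1.62, 4.09 and 3.23. Among Klf2-positive cells the intervals of the 4 libraries overlapped, and among Klf2-negative cells the shares of the aged libraries were lower than those of the young. Among Ccr7-negative cells the ratios were 1.81, 1.90, 4.29 and 3.66. There the intervals of both shares overlapped in the young libraries and were apart in the aged ones. At 2000 UMIs per cell those of the young meninges were apart and those of the young choroid plexus still overlapped. Among Ccr7-positive cells the ratios at 1000 UMIs were 1.20, 1.26, 1.73 and 1.40. The intervals of both shares then overlapped in every library, for example 29.9% (25.5 to 34.6) and 25.0% (19.1 to 31.7) in young meninges. At 2000 UMIs per cell they still overlapped in the young libraries among Ccr7-positive cells. In the aged libraries they were then apart, at 46.8% (35.3 to 58.5) and 18.9% (7.96 to 35.2) in meninges. In the aged choroid plexus the shares were 44.4% (29.6 to 60.0) and 16.4% (7.77 to 28.8). Without thinning, where depth was not matched, they were apart in the young libraries and overlapped in the aged ones. Over all T cells the young ratios depended on depth, since at 2000 UMIs per cell they were 2.72 and 1.93, where the aged ones were 4.54 and 3.70.

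Within the aged libraries most of this difference lay between cells with no Klf2 UMI and cells with 1. The S1pr1 share was 6.90% and 25.9% in meninges and 6.73% and 21.0% in choroid plexus, and with 2 or more Klf2 UMIs it was 31.5% and 23.1%. For Cd69 and S1pr1 no pairing was separable after thinning to 1000 UMIs. The S1pr1 shares of Cd69-positive and Cd69-negative cells had overlapping intervals in every library, for example 5.0% (1.64 to 11.3) and 10.6% (8.90 to 12.6) among Ccr7-negative cells of the aged meninges. Without thinning these were apart, at 12.3% (8.28 to 17.4) and 20.5% (18.1 to 23.0). The Cd69 shares of Klf6-positive and Klf6-negative cells also had overlapping intervals in every library at 1000 UMIs. In the aged meninges they were apart at 2000 UMIs, with 19.6% (15.5 to 24.4) and 11.8% (9.22 to 14.8), and without thinning, with 22.1% (18.9 to 25.6) and 15.2% (12.8 to 17.9).

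Among the other genes of the S1P pathway, 14 of 23 had enough UMIs over all T cells in each tissue. None of them passed the rule of size with age in either, beside 3.20% of all genes in meninges and 3.09% in choroid plexus. The measured genes include Sphk2, which makes S1P, Sgpl1 and Sgpp1, which break it down, and G proteins downstream of the receptors (named after their values were seen). The exporters Spns2 and Mfsd2b, with at most 2 UMIs in a library, and the other S1P kinase Sphk1, with at most 1, were too rare to compare. Their median log2 ratios were 0.10 in meninges and 0.15 in choroid plexus, beside 0.05 and 0.10 over all genes. Of the 14 other Krüppel-like factors, 7 were measured in meninges and 6 in choroid plexus. The only one that passed, beside the same shares of all genes, was Klf4 (named after its values were seen). It rose in the meninges from 3.41 to 22.9 CPM and measured 0.985 and 1.37 CPM in the choroid plexus. Of the 14 genes upstream of KLF2 or of lymphoid homing, 6 fell in each tissue and none rose, beside 0.828% and 0.878% of all genes that fell in meninges and choroid plexus. The 4 with the largest mean ratio were Ccr7, Lef1, the fork head factor Foxp1 and the naïve T-cell factor Tcf7, with log2 ratios in the meninges and the choroid plexus of -2.81 and -2.58 (Ccr7), -2.27 and -2.58 (Lef1), -1.27 and -1.39 (Foxp1) and -1.43 and -1.06 (Tcf7). Foxo1, which drives Klf2 in T cells and is named here after its values were seen, also fell, from 120 to 49.8 CPM in meninges and from 107 to 46.0 CPM in choroid plexus.

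Of the 17 genes of the tissue residency list, 5 rose and 1 fell in meninges and 5 rose in choroid plexus. Of all genes, 2.37% rose and 0.828% fell in meninges and 2.21% rose in choroid plexus. Those that passed in both tissues were Bhlhe40, a transcription factor of resident T cells, with log2 ratios of 1.76 and 1.77, and Rgs1, which dampens chemokine receptor signals, with 1.48 and 1.5. Of the 20 early response genes 6 of 20 rose in meninges, beside the same 2.37% of all genes, and 2 of 18 in choroid plexus, beside 2.21%. Ier3 was the only one to pass in both, with log2 ratios of 1.32 and 1.49.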

How the data were processed

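Sorted T cells of 4 libraries were sequenced with the 10x Chromium 5′ kit, and the authors deposited UMI counts per gene and cell barcode. The file header names Cell Ranger 3.1.0, while the submitters' processing notes name Cell Ranger 5.1.0, STAR and mm10. In both cases the deposited counts were not normalized. Cells with 200 to 7000 genes and at most 5% mitochondrial UMIs were kept here, and Scrublet in scanpy 1.11.5 (Python 3.11.15, scipy 1.17.1) removed 16, 22, 0 and 5 doublets with its automatic threshold, so doublets can remain in the aged meninges. Cells with UMIs of both Cd4 and Cd8 (18, 16, 30 and 33) were left out of the classes.

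UMIs were summed over the cells of a class and divided by all of its UMIs to give CPM. Intervals were exact Poisson for levels, Clopper-Pearson for shares and exact conditional for folds, all at 95%. PCR copies are removed by UMIs, but cells of a library are not replicates, so no p-value was computed, and the Wilcoxon test over cells that the study used was not run. For a call, both classes needed at least 50 cells, and the higher one 20 UMIs and a log2 ratio of 1 after 10 CPM was added. Thinning drew 1000 UMIs per cell without replacement (seed 0).

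All 7 members are named throughout. From the gene lists, at most the 4 genes past the rule in both tissues with the largest mean ratio are named, and any other is said to be named after its values were seen. The members and lists were chosen with earlier results of these data known. The split of Ccr7-negative cells by integrin or Cxcr6 UMIs, the Lef1 computations, and the pairing of Klf3 with S1pr1 were added after seeing the data. Gene positions came from GENCODE on GRCm38 and start regions from RefSeq on GRCm38.p6, in which 5 of the 7 members had an entry.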

Additional observations from a re-analysis of the deposited data

Results flagged for a closer look

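Over all T cells the Cd69 transcript went in opposite directions with age in the 2 tissues. The aged level was 1.25 times the young one in the meninges (1.07 to 1.46) and 0.746 times in the choroid plexus (0.580 to 0.963). In the cells with neither Cd4 nor Cd8 transcript the folds were 1.44 and 0.650. In CD4 T cells they were 1.34 (0.987 to 1.84) and 0.762 (0.442 to 1.32), and in CD8 T cells they were below 1 in both tissues, 0.856 (0.625 to 1.17) and 0.934 (0.591 to 1.52), all with intervals that included 1. Each of these values compares 1 library with 1 library, and the difference between the tissues was not tested. With the T cells richest in early response UMIs left out, the meningeal fold over all T cells was 1.02 (0.804 to 1.29) and the choroid plexus fold was 0.652 (0.501 to 0.850).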

How the results depend on the processing

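The 38 member ratios past the rule of size kept their direction in all 562 recomputations under 17 alternative settings, and 502 stayed past the rule. A part of this was fixed in advance. A limit of 5 UMIs or a log2 limit of 0.5 leaves each ratio as it was and only loosens the rule. Adding 1 or 50 CPM cannot reverse a direction. Of 269 recomputed counts of members past the rule, 218 stayed within 1.5 times the reported one, and the others follow. For age in all cells of a class, meningeal CD4 T cells had 1 in place of 3 with the highest 5% of Scrublet scores removed, with 50 CPM added, without cells carrying markers of other cell types, and with at least 2 UMIs for a CD4 or CD8 call, and choroid plexus cells with neither transcript had 1 in place of 3 after thinning to 1000 UMIs and with 50 CPM added. For age within Ccr7-negative cells of the meninges the count of 0 became 2 after thinning, with per-cell CPM, with 1 CPM added, without cells of other types, without the cells richest in early response UMIs and with Ccr7 called after thinning, it became 1 without ribosomal and mitochondrial genes in the total, without gamma-delta or NK marked cells and with the gate by Ccr7 or Lef1, and it became 7 at a log2 limit of 0.5. In the choroid plexus 2 became 1 after thinning, with 50 CPM added, without cells of other types and with the Ccr7 or Lef1 gate. Within Ccr7-positive cells of the meninges 0 became 1 after thinning and without cells of other types, and 3 at 0.5. In the choroid plexus 1 became 0 after thinning and without gamma-delta or NK marked cells, 2 with the Ccr7 or Lef1 gate, 3 without cells of other types and 4 at 0.5. Between Ccr7 states the young meninges had 0 in place of 3 after thinning and without gamma-delta or NK marked cells, 1 with per-cell CPM, 50 CPM added, without cells of other types and with Ccr7 called after thinning, and 6 at 0.5. The young choroid plexus had, in place of 1, 0 with per-cell CPM and with Ccr7 called after thinning, 2 without doublet removal, with 1 CPM added, with median-of-ratios scaling, without ribosomal and mitochondrial genes and without cells of other types, and 3 at 0.5 and with the Ccr7 or Lef1 gate. The aged choroid plexus had 1 with 50 CPM added and 4 at 0.5. Between tissues, young mice had 1 in place of 0 with 1 CPM added and without cells of other types and 2 at 0.5, and aged mice had 0 in place of 3 with 50 CPM added and without the cells richest in early response UMIs. The cause of these shifts was not tested. The ratio of S1pr1 shares between Klf2-positive and Klf2-negative cells became 3.15 without thinning and 2.72 at 2000 UMIs in young meninges, 2.57 without thinning in young choroid plexus, and 2.98 and 3.92 in Ccr7-negative cells of young meninges. No paired analysis was possible because each condition had 1 library, and for the same reason no library could be left out. Depth limits S1pr5 most, with 5 to 28 UMIs per library.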

Other observations

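The gates that held at least 50 cells showed further spread of the members among T-cell states, described here as levels. Cells with a UMI of Tnfsf8, the gene of CD153, had the highest S1pr1 in each library among the 5, 4, 10 and 10 gates for effector, helper, regulatory, interferon and cycling genes that held enough cells, with 284 and 241 CPM in the young meninges and choroid plexus and 190 and 108 CPM in the aged ones, and 63.8%, 58.9%, 16.4% and 15.3% of them also had a Ccr7 UMI. Among the gates under 50 cells, which were not ranked, regulatory cells of the young choroid plexus stood higher, at 435 CPM from 12 cells. Over all T cells S1pr1 measured 277, 231, 131 and 92.8 CPM, so the young Tnfsf8 levels were close to those of all T cells. The Tnfsf8 interval held the value of the second gate except in the aged meninges, for example 231 to 347 CPM beside 247 CPM in young meninges. The lowest S1pr1 stood in Gzmk cells of the young meninges (92.0 CPM) and Cxcr3 cells of the young choroid plexus (89.9 CPM). In the aged libraries it stood in meningeal cells with a UMI of Trdc or a Tcrg-C gene (57.9 CPM) and cycling cells of the choroid plexus (32.3 CPM). The Trdc or Tcrg-C gate was set by transcript and does not define a cell type. In every library the interval of the lowest gate held the value of the second lowest. Foxp3 cells, which hold the regulatory T cells, had 110 and 90.9 CPM of S1pr4 in the aged meninges and choroid plexus, the highest of the gates there. In the aged meninges that level (82.4 to 145) was not separable from the 108 CPM of the circulating effector gate. Cells with a Th2 gene (Il4, Il5, Il13 or Il1rl1) had the highest Cd69 of the aged meninges, 188 CPM (142 to 245), and 48.7 CPM in the aged choroid plexus. The next gate of the aged meninges, Foxp3 cells, had 142 CPM of Cd69.

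Likeness was measured as Pearson's r of log2(CPM + 10) over 12 points, the 3 classes of the 4 libraries, among 2381 genes. The points share libraries and depth, so the values are a description. S1pr1 was most like Cytip (0.98) and Atp1b3 (0.97). Klf2 was most like Tsc22d3 (0.97) and Npc2 (0.96), and Klf3 was most like Rasgrp2 and Npc2 (both 0.95). Klf6 was most like Btg2 (0.98), Pnrc1 and Fos, and Cd69 most like Tra2b (0.95), Fos and Dnajb1. S1pr4 had S1pr1 (0.93) among its nearest genes, behind Emb and Msn. Among the members r was 0.93 for S1pr1 and Klf2, 0.92 for Klf2 and Klf3 and 0.87 for Klf6 and Cd69, against 0.32 for S1pr1 and Cd69 and -0.10 for S1pr1 and S1pr5.

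Cells with a Klf3 UMI also more often held an S1pr1 UMI after thinning to 1000 UMIs, a pairing added after seeing the data. The shares in Klf3-positive and Klf3-negative cells were 31.9% (26.0 to 38.3) and 20.7% (17.9 to 23.7) in young meninges, 25.0% (17.2 to 34.3) and 19.3% (15.9 to 23.1) in young choroid plexus, 23.7% (16.4 to 32.4) and 10.6% (8.97 to 12.5) in aged meninges and 22.2% (13.3 to 33.6) and 7.89% (6.30 to 9.74) in aged choroid plexus. The intervals overlapped in the young choroid plexus and were apart in the other libraries. Among Ccr7-positive cells the ratio of the shares was 1.22, 0.841, 0.998 and 3.68, and among Ccr7-negative cells 2.34, 2.68, 2.44 and 2.05. At 1000 UMIs the intervals of both shares overlapped in every library among Ccr7-positive cells, and among Ccr7-negative cells in the aged choroid plexus only. The ratio of 3.68 rested on 8 of 21 and 9 of 87 cells. It was 0.925 at 2000 UMIs per cell and 1.21 without thinning, where the ratio of 2.05 became 2.24 and 2.23. At both of these depths the Ccr7-negative shares of the aged choroid plexus were apart and those of the young meninges overlapped. The ratio of 2.34 in the young meninges became 1.68 at 2000 UMIs and 1.27 without thinning.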
